A study of Mus musculus with 23 samples.

Results

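MHC class I molecules of mouse dendritic cells are described here from 9 genes: the classical heavy chains H2-K1 and H2-D1, the light chain B2m, and the non-classical heavy chains H2-Q4, H2-Q6, H2-Q7, H2-T22, H2-T23 and H2-M3. They were taken by gene name from a table of 13572 genes, and all 9 names were found. The cells were type 1 conventional dendritic cells (cDC1), sorted from subcutaneous tumours as living CD45+ cells positive for MHC-II, CD11c and CD103 and negative for CD11b. The hosts were wild-type C57BL/6 mice. The PGE2-deficient tumours grew for 6 days from BRAFV600E melanoma cells lacking Ptgs1 and Ptgs2, the genes of the cyclooxygenases that start prostaglandin E2 synthesis. The control tumours grew for the same time from BRAFV600E melanoma cells that make PGE2. Both tumour lines carried BRAFV600E, and the knockout was in the tumour cells, not in the mice. Each group held 4 mice, and each library was made by Smart-seq3 from a pool of 10 sorted cells, with 11 PGE2-deficient and 12 control libraries (PGE2-deficient mouse 2 had 2 pools and every other mouse 3). The labels also describe tumours in Ptger2 KO mice with Ptger4 fl/fl deleted by Clec9A-Cre, and these were not analysed here. The labels do not say whether a tumour line was 1 clone, nor give the age of the mice.

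A class I molecule is a heavy chain that folds with beta-2 microglobulin, the light chain, around a peptide loaded in the endoplasmic reticulum. The classical heavy chains show these peptides to CD8+ T cells, and cDC1 are known for placing peptides from taken-up tumour material on them. Non-classical heavy chains vary less between individuals and are often recognised by innate-like T cells or natural killer cell receptors. Interferons, NF-kB and the transactivator Nlrc5 are known to act on class I promoters.

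The libraries held 25571 to 98554 counts and 4631 to 8868 genes each, and the summed counts of a mouse were 101017 to 230478 in the PGE2-deficient group and 113263 to 155070 in the control group. All 11 cDC1 markers examined, Xcr1 and Clec9a among them, had counts in both groups. Their summed level was 6016 to 8654 CPM (a gene's counts scaled by the counts of all tested genes in that mouse) in PGE2-deficient mice and 3080 to 5390 CPM in control mice, with no overlap. Markers of mature dendritic cells, 8 genes such as Ccr7 and Fscn1, summed to 3353, 3286, 852 and 1156 CPM in PGE2-deficient mice 1 to 4, against 495, 929, 602 and 1113 CPM in control mice 1 to 4. All 8 were present in both groups. The 10 macrophage and monocyte markers summed to 107 to 225 CPM in PGE2-deficient mice and 69.0 to 1254 CPM in control mice. C1qb was at 0 in the PGE2-deficient group. Ly6c2 held 50 of the 81 counts of this list in PGE2-deficient tumours and 48 of 306 in control tumours. Fcgr1 had 11 and 8 counts. The 8 markers of plasmacytoid dendritic cells summed to 231 to 413 CPM in PGE2-deficient mice and 161 to 1315 CPM in control mice. Siglech, Ly6d, Cox6a2 and Klk1 were at 0 in the PGE2-deficient group, while every gene of the list had counts in the control group. Bst2 and Pacsin1 went the other way, with 131 and 3 counts in PGE2-deficient and 68 and 1 in control tumours. Bst2 thus made up most of the 164 counts of this list in the PGE2-deficient group, against 290 counts of the list in the control group. The 9 T cell markers summed to 0 to 256 CPM in PGE2-deficient mice and 0 to 127 CPM in control mice. Cd4 was at 0 in both groups, Cd8a and Trbc1 also in the control group. The 8 cDC2 markers summed to 107 to 522 CPM in PGE2-deficient mice and 353 to 721 CPM in control mice. Summed natural killer cell, B cell and melanoma markers were at most 81.6, 178 and 5.10 CPM in any PGE2-deficient mouse and at most 17.2, 90.3 and 50.2 CPM in any control mouse, and no neutrophil marker examined was in the table. The part of these other cells in the class I results was not tested. A fit without the libraries richest in a narrower set of such markers is given below. In pools of 10 cells, a larger share of cells with high class I RNA and more class I RNA per cell cannot be told apart.

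The promoters of the 4 genes called higher in PGE2-deficient tumours below are shown with matches to elements of class I promoters. That of H2-D1, which was not called, is shown for comparison with H2-K1. Each line holds the 200 bases before the RefSeq transcription start (build GRCm38.p6), written 5′ to 3′ along the gene. H2-K1 covers chr17:34000348-34000547 on the minus strand, H2-D1 chr17:35262894-35263093, B2m chr2:122147487-122147686, H2-Q6 chr17:35424650-35424849 and H2-Q7 chr17:35438955-35439154, the last 4 on the plus strand. Capitals mark matches, on either strand, to the kB core GGGANTNCC, the interferon response element cores GAAANNGAA or GAANNGAAA, the X2 box core TGACG and the Y box core CCAAT.
H2-K1: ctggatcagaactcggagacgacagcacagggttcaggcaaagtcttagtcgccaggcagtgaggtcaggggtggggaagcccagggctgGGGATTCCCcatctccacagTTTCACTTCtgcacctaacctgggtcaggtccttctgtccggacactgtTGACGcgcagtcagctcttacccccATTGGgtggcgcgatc
H2-D1: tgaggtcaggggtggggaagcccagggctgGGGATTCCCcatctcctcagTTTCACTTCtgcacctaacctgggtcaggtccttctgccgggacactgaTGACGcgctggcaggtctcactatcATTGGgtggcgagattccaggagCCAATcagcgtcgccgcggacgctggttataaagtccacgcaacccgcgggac
B2m: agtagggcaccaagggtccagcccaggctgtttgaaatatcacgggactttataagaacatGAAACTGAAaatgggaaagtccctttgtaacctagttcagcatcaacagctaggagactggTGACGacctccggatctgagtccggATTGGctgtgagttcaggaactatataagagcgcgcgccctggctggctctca
H2-Q6: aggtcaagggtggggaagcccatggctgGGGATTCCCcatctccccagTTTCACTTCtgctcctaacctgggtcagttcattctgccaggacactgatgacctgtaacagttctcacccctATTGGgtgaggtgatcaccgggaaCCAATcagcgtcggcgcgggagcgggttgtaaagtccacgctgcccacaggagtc
H2-Q7: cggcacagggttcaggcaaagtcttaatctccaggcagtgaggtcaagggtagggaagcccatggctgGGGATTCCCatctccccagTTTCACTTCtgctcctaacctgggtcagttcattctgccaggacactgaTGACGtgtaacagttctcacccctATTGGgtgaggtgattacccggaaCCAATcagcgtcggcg
In H2-K1, H2-D1, H2-Q6 and H2-Q7 the capitals begin with a kB match, which holds on both strands. An interferon element match follows it on the strand opposite to the printed one. H2-Q4 holds the same pair, with its kB match on the strand of the gene alone. B2m had an interferon element match and no kB match in its window. Over the longer windows of 250 bases before to 50 bases after the start, the kB core was found in 5 of the 9 genes, against 3.95% of the 32851 mouse promoters of the same length. The GAANNGAAA core was found in 6 of 9 genes (H2-K1, H2-D1, H2-Q4, H2-Q6, H2-Q7 and H2-M3), against 7.52% of all promoters. This core, the shifted one in the plot of motifs, was searched after the sequences had been seen. The GAAANNGAA core was found in the other 3 genes (B2m, H2-T22 and H2-T23), against 8.56% of all promoters. The X2 core was found in 7 of 9 genes, all but H2-Q6 and H2-T23, against 20.8% of all promoters. The Y core was found in 9 of 9 genes, against 37.4% of all promoters. These cores were chosen as elements of class I promoters, and H2-K1, H2-D1, H2-Q6 and H2-Q7 share long runs of their printed stretches. High shares were therefore built in, and they describe these 9 genes only. No 2 of these motifs overlapped in the printed stretches. The RefSeq start sites of H2-D1 and H2-T23 lie 364 and 154 bases from the gene starts of the GENCODE annotation, so their windows depend on the transcript chosen. A match describes letters, not binding.

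**Figure D1:**
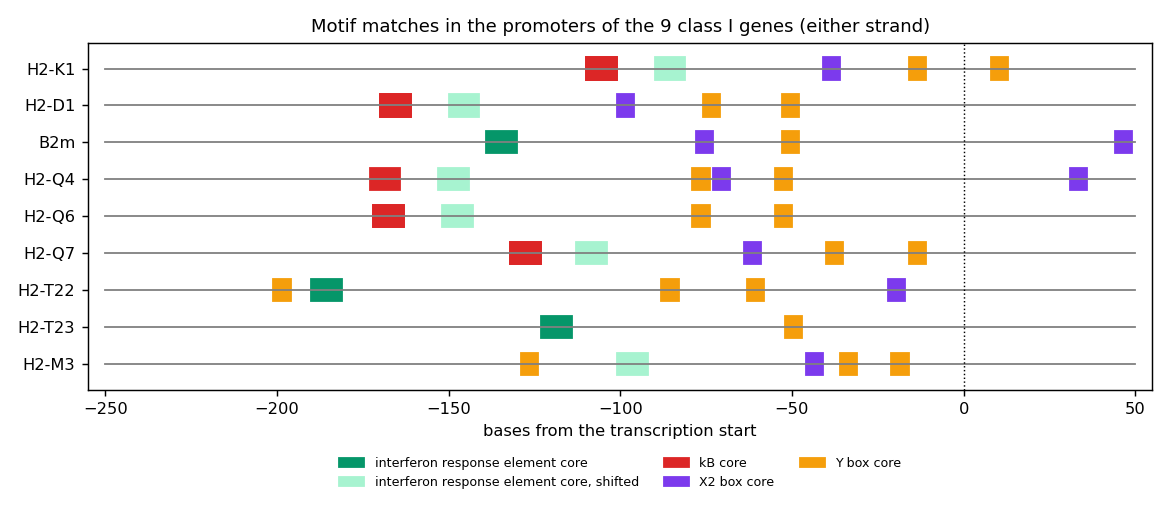
Motif matches in the promoters of the 9 class I genes, by distance in bases from the RefSeq transcription start (dotted line), with a row for each gene and a colour for each motif, on either strand. The kB core stands beside the shifted interferon element core in H2-K1, H2-D1, H2-Q4, H2-Q6 and H2-Q7, 5 of the 9 genes.

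H2-K1, H2-D1 and the 6 non-classical genes lie on chromosome 17 in the H2 complex, and B2m lies on chromosome 2 (122147686 to 122153083, plus strand). In GRCm38 coordinates H2-K1 spans 33996017 to 34000347 on the minus strand and H2-D1 35262730 to 35267499 on the plus strand. H2-Q4 spans 35379617 to 35385290, H2-Q6 35424850 to 35430055 and H2-Q7 35439155 to 35443773, all on the plus strand. H2-T23 spans 36029773 to 36032855 and H2-T22 36037128 to 36042747 on the minus strand, and H2-M3 37270220 to 37274484 on the plus strand. All 9 are annotated as protein-coding. The heavy chain genes are near copies of each other, which bears on how reads can be assigned. Their coding sequences were most alike for H2-Q6 and H2-Q7 (95.4% identity over aligned bases) and for H2-K1 and H2-D1 (92.0%), and least alike for H2-Q6 and H2-M3 (73.2%). Of all 50-base stretches of the main transcript, those found in no other of 28 class I transcripts made up 100.0% in B2m, 99.4% in H2-M3, 91.2% in H2-K1 and 88.0% in H2-D1. The share was 85.3% in H2-Q4, 79.5% in H2-T23 (with 12.9% shared with H2-T-ps, another class I gene) and 78.7% in H2-Q6. It was lowest in H2-Q7 (67.8%, with 19.6% shared with H2-Q6) and H2-T22 (59.8%, with 33.6% shared with H2-T10). Values of H2-Q6, H2-Q7, H2-T22 and H2-T23 are therefore uncertain as to the gene. How reads that fit several copies were counted is not given in the sources used here.

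Class I transcripts took a larger share of the RNA in cDC1 from PGE2-deficient tumours. The 9 genes held 0.588%, 1.13%, 0.557% and 0.530% of all counts in PGE2-deficient mice 1 to 4, against 0.306%, 0.341%, 0.379% and 0.424% in control mice 1 to 4. Every PGE2-deficient mouse stood above every control mouse, and this sum was not tested. B2m supplied most of these counts, 2585 of 3973 in the PGE2-deficient group and 1305 of 1988 in the control group. The mean level of each of the 9 genes was higher in the PGE2-deficient group. Of the 9, 6 held enough counts for the test across all genes, edgeR's quasi-likelihood test on counts summed per mouse with Benjamini-Hochberg adjustment over 2076 genes and a threshold of 0.05. H2-K1, B2m, H2-Q6 and H2-Q7 were called higher and none lower, in a comparison that called 4.96% of all tested genes in either direction and 2.7% as higher. H2-Q6 and H2-Q7 reached the count filter in the 4 PGE2-deficient mice and in 0 control mice, so a difference was built into their being tested and their calls add nothing to that count. Of the other 4 tested genes, all 4 PGE2-deficient mice stood above all 4 control mice in 3 (H2-K1, B2m and H2-T23, not H2-D1), against 4.91% of all tested genes. These 4 genes had log2 fold changes of 1.07 (H2-K1), 0.65 (H2-D1), 0.87 (B2m) and 0.66 (H2-T23). The values describe them only, and the median over all tested genes was 0.01. The 3 genes that failed the filter were H2-Q4, H2-T22 and H2-M3.

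**Figure D2:**
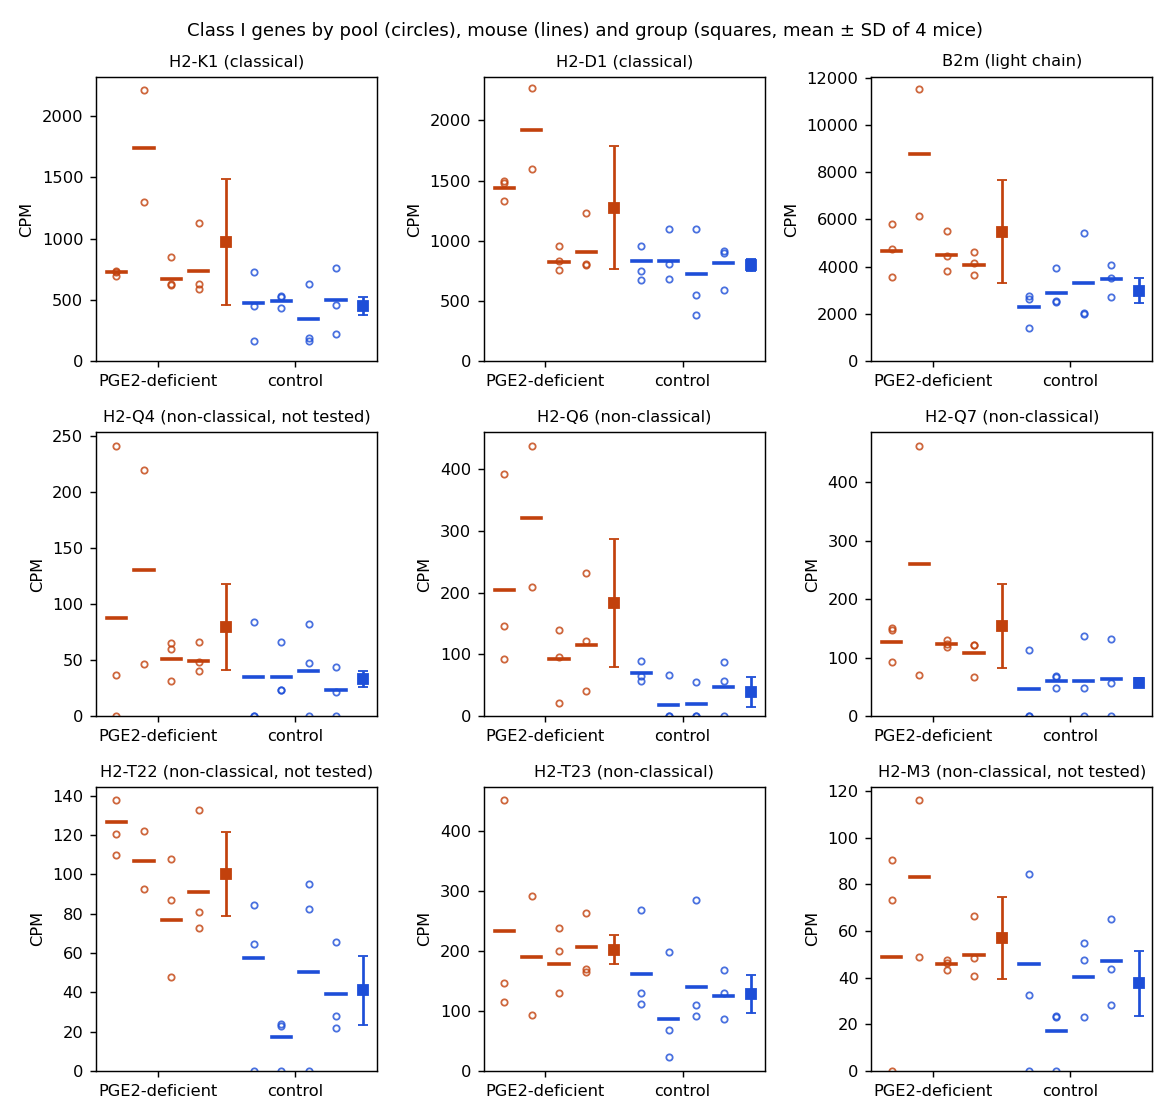
Level of each class I gene in CPM by pool (circles), by mouse (short lines, mice 1 to 4 from left to right) and by group (squares, mean ± SD of 4 mice), with PGE2-deficient tumours left of control tumours. PGE2-deficient mouse 2 is the highest mouse for H2-K1, H2-D1 and B2m, at 1744, 1922 and 8754 CPM, and the groups overlap in H2-D1 and H2-M3.

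H2-K1, the heavy chain of the classical molecule H-2K, was about 2.11-fold higher in cDC1 from PGE2-deficient tumours. H2-K1 had 731, 1744, 674 and 735 CPM in PGE2-deficient mice 1 to 4, against 472, 490, 341 and 502 CPM in control mice 1 to 4. The groups did not overlap, and PGE2-deficient mouse 2 was far above the other 3 mice of its group. Means were 971 ± 516 CPM in PGE2-deficient tumours and 451 ± 74.4 CPM in control tumours (SD, n = 4 each), a log2 fold change of 1.07 ± 0.27 (SE, adjusted p = 0.0283, edgeR). The lowest, median and highest pools held 587, 724 and 2217 CPM in PGE2-deficient tumours and 161, 453 and 759 CPM in control tumours. All 11 PGE2-deficient pools were above the control median, and 4 were above the highest control pool. Without PGE2-deficient mouse 2 the log2 fold change was 0.65 (adjusted p = 0.0938, edgeR), and it was also not called without control mouse 2 (1.10, adjusted p = 0.0587) or control mouse 3 (0.96, adjusted p = 0.0910).

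H2-D1, the heavy chain of H-2D, was not called. H2-D1 had 1442, 1922, 827 and 908 CPM in PGE2-deficient mice 1 to 4, against 828, 835, 723 and 815 CPM in control mice 1 to 4. PGE2-deficient mouse 3 lay within the narrow control range, mouse 4 just above it, and mice 1 and 2 well above it. Means were 1275 ± 511 CPM in PGE2-deficient tumours and 800.2 ± 52.3 CPM in control tumours (SD, n = 4 each), a log2 fold change of 0.65 ± 0.22 (SE, adjusted p = 0.102, edgeR). Without PGE2-deficient mouse 3 it passed the threshold (0.81, adjusted p = 0.0346), and without PGE2-deficient mouse 2 the log2 fold change was 0.39 (adjusted p = 0.363).

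B2m, the light chain shared by all these heavy chains, was the most abundant of the 9. B2m had 4658, 8754, 4480 and 4053 CPM in PGE2-deficient mice 1 to 4, against 2278, 2874, 3292 and 3489 CPM in control mice 1 to 4. The groups did not overlap, and PGE2-deficient mouse 2 was again far above the rest of its group. Means were 5487 ± 2193 CPM in PGE2-deficient tumours and 2983 ± 536 CPM in control tumours (SD, n = 4 each), a log2 fold change of 0.87 ± 0.20 (SE, adjusted p = 0.0164, edgeR). The lowest, median and highest pools held 3554, 4611 and 11523 CPM in PGE2-deficient tumours and 1393, 2657 and 5413 CPM in control tumours. All 11 PGE2-deficient pools exceeded the control median. The call was lost without control mouse 1 (0.75, adjusted p = 0.0532) or control mouse 2 (0.84, adjusted p = 0.0531), and held without PGE2-deficient mouse 2 at a log2 fold change of 0.56 (adjusted p = 0.0412). With robust dispersion B2m was not called, at the same log2 fold change of 0.87 (adjusted p = 0.136).

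H2-Q6 and H2-Q7 encode heavy chains of the Qa-2 family. H2-Q6 had 205, 320, 91.8 and 116 CPM in PGE2-deficient mice 1 to 4, against 69.0, 17.2, 20.1 and 47.0 CPM in control mice 1 to 4. These rest on 21, 27, 18 and 14 counts in PGE2-deficient mice, against 6, 2, 2 and 6 counts in control mice. The groups did not overlap, and H2-Q6 had the largest fold change of the 6 tested genes, 2.18 ± 0.50 on the log2 scale (SE, adjusted p = 0.0149, edgeR). Means were 183 ± 104 CPM in PGE2-deficient tumours and 38.3 ± 24.5 CPM in control tumours (SD, n = 4 each). H2-Q6 and H2-Q7 reached the count filter in PGE2-deficient mice alone. A difference was therefore built into their fold changes, ranks and p-values. H2-Q6 was at 0 in 0 of 11 PGE2-deficient and 5 of 12 control pools, and 9 PGE2-deficient pools lay above the highest control pool. Its call was lost without control mouse 2 (1.92, adjusted p = 0.0598) or control mouse 3 (1.99, adjusted p = 0.0524).

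H2-Q7 had 127, 261, 122 and 107 CPM in PGE2-deficient mice 1 to 4, against 46.0, 60.2, 60.2 and 62.7 CPM in control mice 1 to 4. The control mice were close together and all lay below the PGE2-deficient mice. The log2 fold change of H2-Q7 was 1.35 ± 0.39 (SE, adjusted p = 0.0497, edgeR), from means of 154 ± 71.6 CPM in PGE2-deficient tumours and 57.3 ± 7.61 CPM in control tumours (SD, n = 4 each). This call stood at the threshold and was lost without any 1 of the 8 mice, at log2 fold changes of 1.03 to 1.46 and adjusted p-values of 0.0562 (without PGE2-deficient mouse 3) to 0.192 (without PGE2-deficient mouse 2). With the counts of H2-Q6 and H2-Q7 joined as 1 gene, which sets aside how reads were split between these copies, the log2 fold change was 1.76 (adjusted p = 0.00477, edgeR). Each of these genes had reached the count filter in PGE2-deficient mice alone. The joined value carries that built-in difference and adds nothing to their calls.

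H2-T23 encodes Qa-1, which shows leader peptides of other class I chains to the CD94/NKG2 receptors. H2-T23 had 234, 190, 179 and 206 CPM in PGE2-deficient mice 1 to 4, against 161, 86.0, 141 and 125 CPM in control mice 1 to 4. The groups did not overlap, but the test did not call the gene (log2 fold change 0.66 ± 0.29 SE, adjusted p = 0.213, edgeR). Means of H2-T23 were 202 ± 24.04 CPM in PGE2-deficient tumours and 128 ± 31.7 CPM in control tumours (SD, n = 4 each). Among its pools the groups overlapped widely, from 92.7 to 453 CPM in PGE2-deficient tumours and from 23.7 to 285 CPM in control tumours.

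The other 3 non-classical genes had too few counts to be tested. H2-T22, a ligand of some gamma delta T cells, had 127, 107, 76.5 and 90.8 CPM in PGE2-deficient mice 1 to 4, against 57.5, 17.2, 50.2 and 39.2 CPM in control mice 1 to 4, without overlap. H2-T22 held 48 counts in PGE2-deficient and 17 in control tumours, and was at 0 in 0 of 11 and 3 of 12 pools. H2-Q4, a heavy chain gene of the Qa region, had 87.7, 130, 51.0 and 49.5 CPM in PGE2-deficient mice 1 to 4, against 34.5, 34.4, 40.1 and 23.5 CPM in control mice 1 to 4, again without overlap. It held 36 counts in PGE2-deficient and 14 in control tumours. H2-M3, which presents peptides with a formylated first methionine, had 48.7, 83.0, 45.9 and 49.5 CPM in PGE2-deficient mice 1 to 4, against 46.0, 17.2, 40.1 and 47.0 CPM in control mice 1 to 4. These groups overlapped at 27 counts in PGE2-deficient and 16 in control tumours. In a fit of all 13311 genes with counts, none of the 3 passed (H2-T22 1.25, adjusted p = 0.305; H2-Q4 1.16, adjusted p = 0.494; H2-M3 0.53, adjusted p = 0.81; log2 fold changes, edgeR), at unadjusted p-values of 0.012 for H2-T22, 0.0379 for H2-Q4 and 0.368 for H2-M3.

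**Figure D3:**
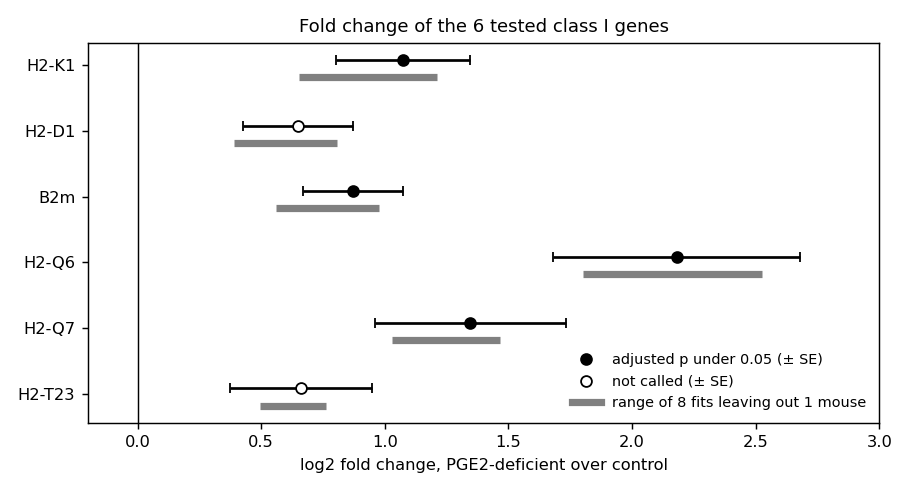
Log2 fold change, PGE2-deficient over control, of the 6 tested class I genes with its SE (circles, filled where the adjusted p was under 0.05), and the range over 8 fits that each leave out 1 mouse (grey bars). All ranges lie above 0, from 0.39 for H2-D1 at the low end to 2.52 for H2-Q6 at the high end. H2-Q6 and H2-Q7 reached the count filter in PGE2-deficient mice alone, so a difference was built into their values.

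Levels were ordered per kilobase of the main transcript, so that genes of different length can be compared. In PGE2-deficient tumours the level was 6380 CPM per kb for B2m, 606 for H2-D1, 600 for H2-K1, 137 for H2-T23, 103 for H2-Q7, 87.8 for H2-Q6, 56.9 for H2-T22, 44.4 for H2-Q4 and 39.5 for H2-M3. In control tumours it was 3469 CPM per kb for B2m, 381 for H2-D1, 279 for H2-K1, 87.1 for H2-T23, 38.3 for H2-Q7, 26.1 for H2-M3, 23.3 for H2-T22, 18.5 for H2-Q4 and 18.4 for H2-Q6. The first 5 places were held by the same genes in both groups. In PGE2-deficient mice the values of neighbours overlapped except between B2m and H2-D1 and between H2-K1 and H2-T23. In control mice neighbours were separate from B2m down to H2-Q7, and the last 5 genes, H2-Q7 to H2-Q6, overlapped from each to the next. H2-Q6 stood at place 6 in PGE2-deficient and last in control tumours, a place set by 16 counts in the control group. Division by length fits counts of reads; if the counts are unique molecules, which the sources do not say, the undivided level is the one to compare. Undivided, H2-Q6 (183 CPM) stood above H2-Q7 (154 CPM) in PGE2-deficient tumours, and in control tumours H2-Q6 (38.3 CPM) stood above H2-M3 (37.6 CPM) and H2-Q4 (33.1 CPM).

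Classical and non-classical genes were then set against each other within each mouse. The 6 non-classical genes made up 27.6%, 22.9%, 27.4% and 27.4% of heavy chain counts in PGE2-deficient mice 1 to 4, against 24.2%, 14.9%, 24.8% and 20.8% in control mice 1 to 4. The groups overlapped, with means of 26.3% ± 2.26 in PGE2-deficient tumours and 21.2% ± 4.53 in control tumours (SD, n = 4 each). The difference of 5.17 percentage points was 1.16 without H2-Q6 and H2-Q7, with shares of 17.3% in PGE2-deficient tumours and 16.2% in control tumours. It was 3.08 without control mouse 2, and 3.41 as the difference between the means of the pools' shares. B2m had 1.55, 1.84, 2.17 and 1.79 counts per heavy chain count in PGE2-deficient mice 1 to 4, against 1.33, 1.85, 2.33 and 2.10 in control mice 1 to 4. These values overlapped fully, with means of 1.84 ± 0.25 in PGE2-deficient tumours and 1.90 ± 0.43 in control tumours (SD, n = 4 each), so the higher B2m level went with higher heavy chain levels. The ratio of H2-K1 to H2-D1 counts was 0.507, 0.907, 0.815 and 0.809 in PGE2-deficient mice 1 to 4, against 0.569, 0.588, 0.472 and 0.615 in control mice 1 to 4. PGE2-deficient mice 2, 3 and 4 lay above all control mice, and mouse 1 lay among them.

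**Figure D4:**
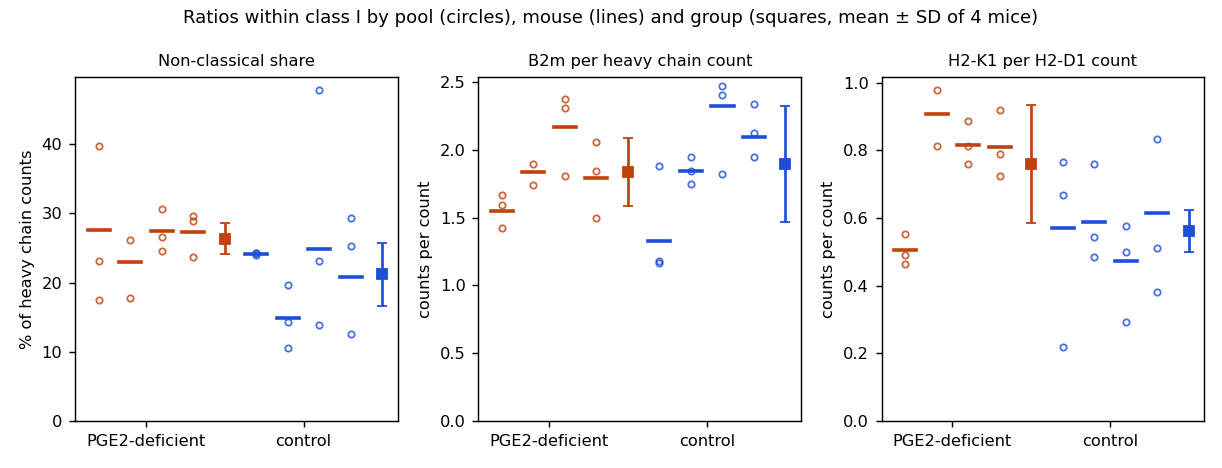
Non-classical share of heavy chain counts, B2m counts per heavy chain count, and H2-K1 counts per H2-D1 count, by pool (circles), mouse (short lines, mice 1 to 4 from left to right) and group (squares, mean ± SD of 4 mice), with PGE2-deficient tumours left of control tumours. The groups overlap in all 3 panels, and the means of B2m per heavy chain count are 1.84 in PGE2-deficient and 1.90 in control tumours.

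The pools of 1 mouse differed from each other more than counting alone would give for most of these genes. The chi-square per degree of freedom of counts between pools of a mouse, which is near 1 for counting error, was 15.7 for B2m, 3.98 for H2-K1 and 2.13 for H2-D1 over 15 degrees of freedom. It was 2.03 to 2.38 for H2-Q4, H2-Q6, H2-Q7 and H2-T23, and 0.699 for H2-T22 and 0.620 for H2-M3. Between mice of a group the same measure was 48.7 for B2m, 15.1 for H2-K1, 12.7 for H2-D1 and 4.48 for H2-Q6 over 6 degrees of freedom. It was 0.575 to 1.72 for the other 5 genes. This measure grows with the counts of a gene, from 43 for H2-M3 to 3890 for B2m, and pools both groups, so it does not rank the genes by their variability.

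Across the 23 pools, after the mean of each group was subtracted, H2-K1, H2-D1 and B2m were among the genes most like each other. Of 2075 other genes, B2m had the log2 level most like that of H2-K1 (Pearson r = 0.80), and H2-D1 ranked 3 for H2-K1 (r = 0.75). For H2-D1, H2-K1 ranked 5 and B2m 11. H2-T23 ranked 1510 for H2-K1, 1315 for H2-D1 and 663 for B2m. It had 1 to 15 counts a pool, and a low rank at such counts is not read as a difference. The genes outside class I most like H2-K1 were Rgs1, Tmbim4, Fis1, Map2k1 and Eny2 (r = 0.75 to 0.65). Those most like H2-D1 were Stat4, Tmem123, Cd63, Tmbim4 and Bcl2l14 (r = 0.83 to 0.75). Those most like B2m were Tnfaip3, Syngr2, Cd63, Cxcl16 and AW112010 (r = 0.74 to 0.69). Pools of a mouse share a tumour and depth differs between pools, so these values describe the pools and carry no test.

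Maturation markers varied widely between pools, from 60.8 to 3879 CPM in PGE2-deficient tumours and from 47.5 to 2192 CPM in control tumours. H2-D1 followed them most closely of the 9 genes (r = 0.74, Spearman rho = 0.86 over 23 pools, group means subtracted). The correlation was 0.53 for B2m, 0.48 for H2-K1 and 0.54 for H2-Q6, and 0.18 to 0.00 for H2-Q4, H2-Q7, H2-T22, H2-T23 and H2-M3, whose counts a pool are low. These too describe pools that share mice. The PGE2-deficient pools with the fewest maturation markers were pool 2 of mouse 4 (60.8 CPM) and pool 3 of mouse 3 (95.1 CPM). They held 3666 and 4470 CPM of B2m, above the control median of 2657 CPM, and 587 and 618 CPM of H2-K1, above the control median of 453 CPM. Their H2-D1 levels, 810.2 and 761 CPM, lay on either side of the control median of 776 CPM. All 11 PGE2-deficient pools were above the control median for B2m and H2-K1, so any choice of pools would show this for these genes. Both pools with few maturation markers also held markers of other cells, with 29 and 13 counts of the narrower set used below to leave out libraries. The part of maturation in the differences between groups was not tested.

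**Figure D5:**
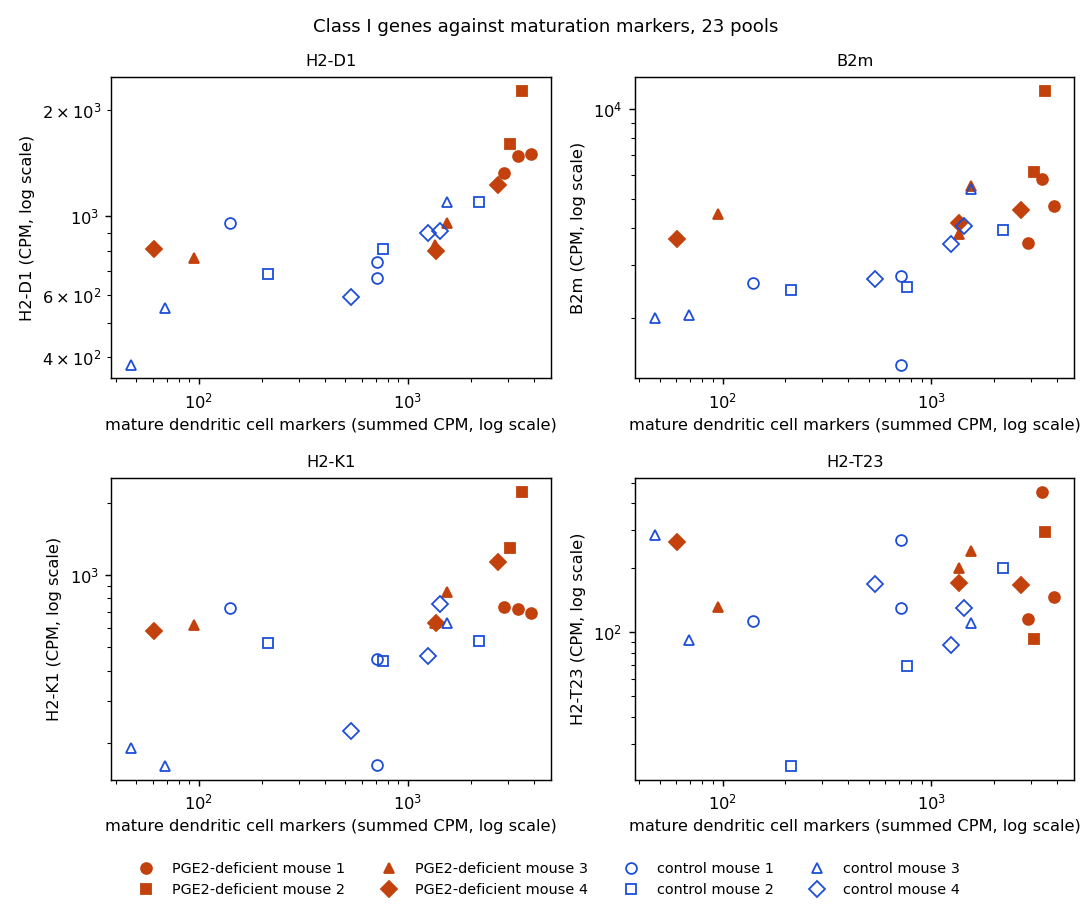
Level of H2-D1, B2m, H2-K1 and H2-T23 in each of 23 pools (CPM, log scale) against the summed level of 8 maturation markers (CPM, log scale), with filled symbols for PGE2-deficient and open symbols for control tumours and a shape for each mouse. H2-D1 climbs with the markers (r = 0.74 with group means subtracted), and H2-T23, at 1 to 15 counts a pool, had r = 0.02.

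Other class I heavy chain genes were sparse: 8 of a list of 23 were in the table and 0 were tested. H2-T10, a close relative of H2-T22, had 24 counts in PGE2-deficient and 5 in control tumours, and H2-Q1 had 7 in PGE2-deficient and 0 in control tumours. Among peptide loading genes, 0 of 6 tested were called, with a median log2 fold change of 0.31. Over all tested genes 4.96% were called in either direction, so 0 calls in a list this short are not read as a result. Tap1, a subunit of the peptide transporter, had 241 ± 43.9 CPM in PGE2-deficient tumours and 133 ± 46.7 CPM in control tumours (SD, n = 4 each), without overlap of the mice and without a call (0.86 ± 0.30 SE, adjusted p = 0.106, edgeR). Its partner Tap2 stood at 0.95 on the log2 scale (adjusted p = 0.242). Of 5 immunoproteasome genes 0 were called, with a median of 0.56, and the same limit holds for this count. The nearest to the threshold were the activator subunit Psme2 (0.80, adjusted p = 0.0536) and the catalytic subunit Psmb8 (0.56, adjusted p = 0.0974).

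Of 17 genes for transcriptional regulators of class I genes 7 were tested, 2 were called higher and 0 lower, against 2.7% called higher over all tested genes. Their median log2 fold change was 0.85, against 0.01 over all tested genes. The list was chosen with earlier results of these data known, so these values describe its genes only. Irf8, a factor that cDC1 need for their development and also 1 of the cDC1 markers above, had 1510 ± 205 CPM in PGE2-deficient tumours and 837 ± 296 CPM in control tumours (SD, n = 4 each), a log2 fold change of 0.85 ± 0.21 (SE, adjusted p = 0.0215, edgeR). All 4 PGE2-deficient mice were above all 4 control mice for Irf8. Nlrc5 was too sparse to test, with 41 counts in PGE2-deficient and 33 in control tumours.

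None of the tested genes for receptors that bind class I molecules was called, and no class II gene. The log2 fold changes were -1.35 for the inhibitory receptor Pirb (adjusted p = 0.112) and -1.44 for Klrd1, the CD94 chain of the Qa-1 receptors (adjusted p = 0.118). Of 9 tested class II genes 0 were called in either direction, and their median was -0.18. With 4.96% of all tested genes called, 0 calls among so few receptor and class II genes are not read as a result. H2-Eb1, a class II beta chain, had 3368 ± 70.5 CPM in PGE2-deficient tumours and 4245 ± 442 CPM in control tumours (SD, n = 4 each), a log2 fold change of -0.33 (adjusted p = 0.132, edgeR). For H2-Aa, a class II alpha chain, the log2 fold change was -0.28 (adjusted p = 0.208). All 4 PGE2-deficient mice were below all 4 control mice for H2-Eb1 and for H2-Aa, as in 119 of the 2076 tested genes. The reverse was seen in 0 of the tested class II genes. The class I-like genes outside the complex, Hfe and Fcgrt, had log2 fold changes of 0.16 and 0.18 (adjusted p = 0.879 for each). The difference between the class I and class II values was not tested.

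A narrower marker set than the lists above was used to leave out libraries: C1qa, C1qb, C1qc, Mrc1, Adgre1, Fcgr1 and Ms4a7 of macrophages, Siglech, Ly6d, Cox6a2, Klk1, Ccr9 and Pacsin1 of plasmacytoid dendritic cells, and Cd3d, Cd3e, Cd3g, Trac, Trbc1 and Trbc2 of T cells. Leaving out the 9 libraries with at least 10 counts over this set (3 PGE2-deficient and 6 control) left 1131 genes to test, of which 2.12% were called. The libraries kept still held counts of the broader lists. In that fit H2-K1 had a log2 fold change of 1.90 and B2m of 1.38 (adjusted p = 0.0208 for each, edgeR). PGE2-deficient mouse 2 then rested on a single pool, the highest of all in H2-K1 (2217 CPM) and B2m (11523 CPM). Control mice 3 and 4 also rested on single pools, with 161 and 225 CPM of H2-K1. The sizes of these fold changes thus rest in part on single pools. H2-D1 had 0.99 (adjusted p = 0.108) and H2-T23 0.69 (adjusted p = 0.376), and H2-Q6 and H2-Q7 were too sparse to be tested. This alternative was chosen after the data had been seen.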

How the data were processed

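RNA of 23 pools of 10 sorted cDC1 was measured by Smart-seq3. The authors deposited raw counts per gene and library, not normalized, in 1 table. Reads were aligned with STAR 2.5.4b to GRCm38/mm10, per the submitters' processing notes. The counting program, its annotation, its handling of reads that fit several genes, and whether counts are reads or unique molecules were not given in the sources used here. PCR copies may therefore be counted, and errors from counts cover counting error only. Symbols changed to dates were restored for 16 rows.

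The 9 members and the lists were chosen with earlier results of these data known. Libraries of a mouse are technical replicates per the labels, so their counts were summed to 8 mice. edgeR 4.0.16 (R 4.3.3) was used with filterByExpr (minimum count 10), TMM scaling and the quasi-likelihood F-test, and Benjamini-Hochberg adjustment at 0.05. It tested 2076 genes, which held 80.6% of counts, and called 56 as higher and 47 as lower. At an unadjusted p under 0.05 it found 389. CPM are counts relative to the TMM-scaled total of the tested genes. DESeq2 1.42.0 and limma 3.58.1 were alternatives. The likeness of genes used log2(CPM + 50). All members are named. From each other list, the genes named were those called or, where none was, the 2 with the smallest p among those tested. The values of 1 called regulator are not reported here. Nlrc5, H2-T10 and H2-Q1 were named after their values had been seen. Main transcripts, their lengths and gene positions came from GENCODE M21, and promoters from RefSeq (GRCm38.p6), where all 9 genes matched. No 2 libraries agreed within counting error (lowest chi-square per degree of freedom 1.84 over 253 pairs). Mouse numbers were not used to pair mice across groups in the main fit. The deviations of same-numbered mice correlated at 0.05, 0.10, 0.00 and -0.09, which with so few mice does not exclude pairing. The labels do not say that mice or tumours were handled in batches.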

Additional observations from a re-analysis of the deposited data

Results flagged for a closer look

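In 24 groups of 4 mice, the mouse farthest from the others was compared with the range of its group by Dixon's 95% criterion, which chance passes in about 1 of 20 groups. It was passed in 6 groups. PGE2-deficient mouse 2, the mouse with 2 pools and 101017 counts, was the high value for H2-K1 (1744 CPM), B2m (8754 CPM), H2-Q7 (261 CPM) and H2-M3 (83.0 CPM). Its non-classical share of heavy chain counts was the low value of its group, at 22.9%. Control mouse 1 was the low value for H2-Q7, at 46.0 CPM. That value rests on 4 counts, and the flagged H2-M3 value on 7 counts. The chi-square per degree of freedom between mice of a group, near 1 for counting error, was 1.72 for H2-Q7 and 0.575 for H2-M3. The cause was not tested.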

How the results depend on the processing

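Against 103 genes called, 194 were called with no count filter, 57 with a minimum count of 20, 51 with technical replicates 2 and 3 alone, 24 without the libraries with at least 10 counts of the narrower marker set, and 56 to 111 when 1 mouse was left out. Of the class I genes, 4 were called; 2 were called with a minimum count of 20, with technical replicates 2 and 3 alone and without those libraries, and 0 to 4 when 1 mouse was left out, with 0 without control mouse 2. The tighter filter and the fewer pools left 4 of the 9 to test. With the mouse number as a replicate block 73 genes and 3 class I genes were called, H2-Q7 being lost (adjusted p = 0.0690). H2-Q7 was also lost with RLE factors, upper quartile factors, no filter and DESeq2. With robust dispersion B2m was lost (log2 fold change 0.87, adjusted p = 0.136), and with limma-voom H2-Q6 (adjusted p = 0.0516). Upper quartile factors called 45 genes higher and 67 lower, against 56 and 47. No class I fold change changed sign in any alternative run. The non-classical share differed by 5.17 percentage points, by 1.16 without H2-Q6 and H2-Q7, by 3.41 over the means of pools, and by 3.08 to 6.39 when 1 mouse was left out. The low counts of 3 genes limit what can be said of them, and 4 mice a group limit all p-values.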
